A study of Mus musculus with 12 samples.

Results

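The genes described here encode the nuclear subunits of mitochondrial oxidative phosphorylation. They were taken by symbol: a probe set was used where its platform annotation gave a single gene symbol that began with Ndufa, Ndufb, Ndufc, Ndufs, Ndufv, Uqcr, Cox4, Cox5, Cox6, Cox7, Cox8 or Atp5, or that was Sdha, Sdhb, Sdhc or Sdhd. Each gene was represented by its brightest probe set over the 12 arrays. This gave 89 genes, with 98 probe sets, of the 22180 genes that could be tested. Complex I held 32 of them, complex II 4, complex III 7, complex IV 19 and complex V 17. The prefixes also took in 8 assembly factors of complex I (Ndufaf1 to Ndufaf8) and 2 pseudogenes, Atp5c1-ps and Uqcrh-ps1, which left 79 subunit genes. Symbols alone decided which genes entered, and the measured brightness decided only the probe set.

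Expression had been measured in mouse pancreatic cells on 12 Affymetrix arrays, 3 in each of 4 groups, and every sample is labelled C57Bl6/J wildtype. Acinar cells make and secrete the digestive enzymes of the pancreas, and those of adults and embryos were taken from tissue by collagenase digestion and lysed for RNA at once. Cultures in acinar-to-ductal metaplasia (ADM), the conversion of acinar cells to a duct-like state, spent 7 days inside a collagen gel with TGF-alpha, which activates the epidermal growth factor receptor, at 50 ng/ml. Tumor cells of low passage came from standard medium. ADM therefore differs from freshly isolated acinar cells in culture, gel and ligand at the same time, and the design has no culture without the ligand. The labels used here give neither an age for embryos or adults nor a driver mutation for the tumor cells. They number replicates 1 to 3 without saying whether these were separate animals or cultures, so p-values reflect array-to-array spread alone, which may be technical.

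Oxidative phosphorylation couples electron transfer to ATP production in the inner mitochondrial membrane. Complex I takes electrons from NADH and complex II from succinate, ubiquinone carries them to complex III, cytochrome c carries them to complex IV, which reduces oxygen, and complex V uses the resulting proton gradient to make ATP. The complexes other than complex II combine nuclear-encoded subunits with subunits made from mitochondrial DNA, and complex I is built from separate modules with the help of assembly factors that are absent from the finished enzyme. Acinar cells synthesise and secrete large amounts of protein, a task with a high demand for ATP.

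Values are log2 signals as deposited, so a change of 1 is a 2-fold change. Calls of higher or lower rest on a limma adjusted p under 0.05 (Benjamini-Hochberg over all 22180 genes), and ± beside a change is its standard error with 3 arrays per group. The median change of all genes was -0.11 for ADM against adult, -0.09 for embryonic against adult and -0.09 for tumor against adult cells. A background level of 3.62 was set from 1394 receptor genes of smell and pheromone sensing, as the 95th percentile of their group means. Acinar marker genes (7 measured) averaged 11.4 to 11.5 on adult, 10.6 to 10.8 on embryonic, 8.53 to 9.02 on ADM and 3.73 to 4.0 on tumor arrays. Prss2, Cel and Ptf1a were not above background in tumor cells. The 5 ductal markers averaged 9.60 to 9.75 on ADM, 7.03 to 7.19 on adult, 7.78 to 7.95 on embryonic and 7.67 to 7.77 on tumor arrays. Of these, Cldn4 was not above background in tumor cells. In material of this kind, fewer cells of a type and less RNA per cell cannot be told apart. 82 of the 89 genes were above background in at least 1 group. The other 7 were Ndufs5, Cox7b2, Cox8c, Atp5g1, Atp5o and both pseudogenes. 57 had a mean of at least 8, and 56 of these were subunit genes. Levels of different genes rest on different probes and are not set against each other.

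The comparison of ADM cultures with adult acinar cells addresses how respiratory chain transcripts differ after conversion in culture. 32 of the 89 genes were lower in ADM and 5 were higher, which is 36.0% and 5.62%, against 15.0% lower and 20.9% higher among all genes. Complex I and complex III held most of the lower genes, with 19 of 32 and 6 of 7. Complex IV, by contrast, had 2 lower and 3 higher genes of 19, and complex V 2 lower of 17. Among the 56 subunit genes with a mean of at least 8, 26 were lower (46.4%) and 0 were higher (33 and 0 at an unadjusted limma p under 0.05), while 22.3% of all 1671 genes that bright were lower and 38.4% were higher. Of the 32 lower calls, 21 remained in number without the second ADM array and 20 without the third. With housekeeping centring 79 of the 89 genes were lower and 2 higher, against 13155 and 2669 of all 22180 genes. That scaling moved the median of all genes to -0.62 and lowered the higher share of all calls from 58.2% to 16.9%. With a minimum change of 2-fold, 2 were lower (Ndufa1 and Ndufb9) and 3 higher, against 4.22% and 12.5% of all genes.

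**Figure D1:**
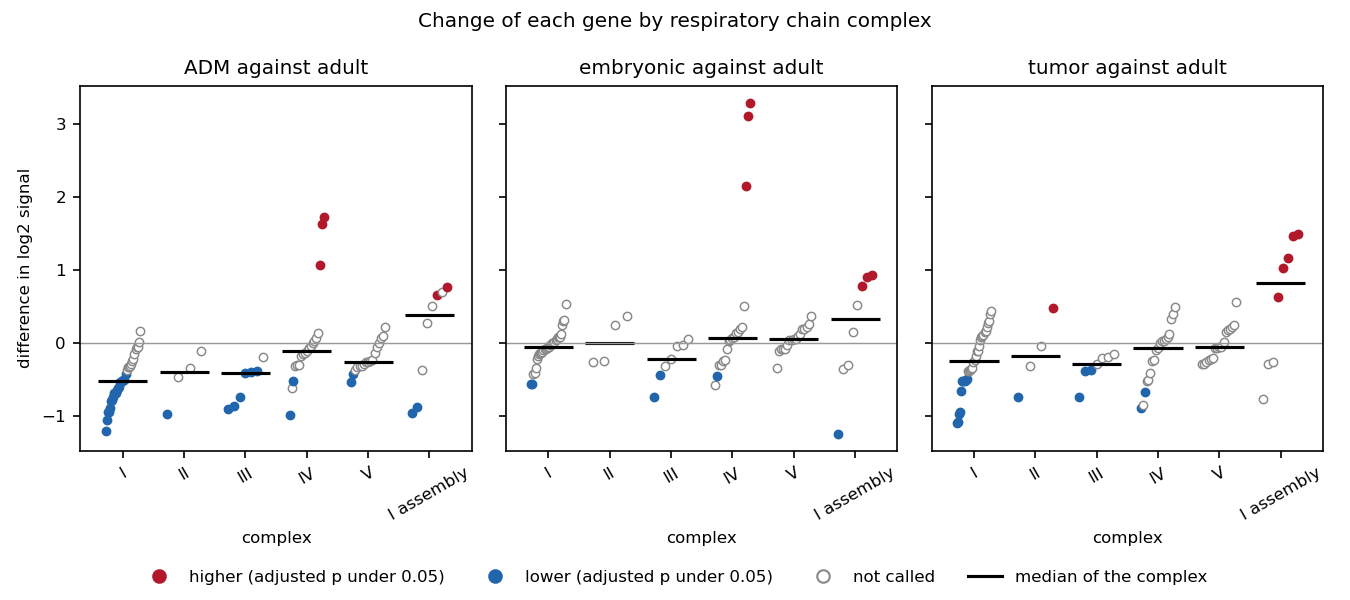
Difference in log2 signal of each gene from adult acinar cells (vertical axis) by complex (horizontal axis), with a panel each for ADM, embryonic and tumor cells; points are genes, filled where the adjusted p was under 0.05, and bars are medians. In ADM the filled points of complexes I and III lie below 0, with complex medians of -0.52 and -0.42, while the assembly factors have a median of 0.38.

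Complex I transcripts were lower in ADM as a set of modest shifts rather than a few large ones. The median change of its 32 genes was -0.52, the called changes ran from -0.43 to -1.21, and 0 genes of complex I were higher, also at an unadjusted limma p under 0.05. The ubiquinone module, which hands electrons from the iron-sulfur clusters to ubiquinone, was lower in 5 of 5 genes (median -0.69). The NADH module, where NADH is oxidised, was lower in 3 of 8 (median -0.26), and the membrane arm, which pumps protons, in 10 of 17 (median -0.51). The difference between modules was not tested. Ndufa6, a partner of the mitochondrial acyl carrier protein within complex I, was also lower. 12 of the 19 calls held under every alternative scaling, probe rule, fit and omission of an array, apart from the 2-fold minimum.

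Ndufa1, a small subunit of the membrane arm needed for complex I assembly, had the largest decrease among all 89 genes. Its log2 signal was 10.93, 10.96 and 10.90 in adult cells, 10.37, 10.32 and 10.40 in embryonic cells, 9.75, 9.69 and 9.73 in ADM and 9.92, 10.10 and 9.83 in tumor cells. No array of the other groups reached the adult range, and the embryonic arrays lay between those of adult and ADM without overlap. The change in ADM was -1.21 ± 0.13 (adjusted p = 8.3e-06), a 2.31-fold decrease.

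Ndufb9, another membrane arm subunit, measured 10.97, 10.94 and 10.98 in adult cells and 9.90, 9.93 and 9.87 in ADM, with tumor arrays at 9.81, 10.34 and 9.90. Adult and ADM arrays did not overlap, and the change was -1.06 ± 0.16 (adjusted p = 0.000148). The embryonic arrays of Ndufb9, at 10.65, 10.75 and 10.45, lay between those of adult and ADM without overlap. It was not called in embryonic against adult cells (limma adjusted p = 0.114). Ndufs7, which holds the iron-sulfur cluster next to ubiquinone, measured 8.74, 8.76 and 8.86 in adult cells, 8.18, 8.26 and 8.23 in embryonic cells and 7.86, 7.88 and 7.78 in ADM. The groups again did not overlap (change in ADM -0.95 ± 0.14, adjusted p = 0.000135). Ndufa9, which lies near the ubiquinone site, measured 9.45, 9.29 and 9.09 in adult cells, 8.59, 8.46 and 8.54 in ADM and 9.31, 9.65 and 9.31 in tumor cells. It was lower in ADM by -0.75 ± 0.15 (adjusted p = 0.00154), and the tumor arrays lay in or above the adult range.

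Ndufv1, the subunit that binds NADH, changed by -0.69 ± 0.15 in ADM (adjusted p = 0.00233). Ndufv3, an accessory subunit beside it, measured 8.68, 8.57 and 8.53 in adult cells, 7.74, 7.86 and 7.76 in ADM and 7.81, 7.49 and 7.18 in tumor cells. Both cultured groups lay wholly below the adult arrays. So did the embryonic arrays, at 8.18, 8.17 and 8.12, though the gene was not called in embryonic against adult cells (limma adjusted p = 0.0548). Ndufa6 measured 10.24, 10.29 and 10.17 in adult cells, 10.13, 10.26 and 10.06 in embryonic cells, 9.25, 9.40 and 9.34 in ADM and 9.33, 9.27 and 8.84 in tumor cells. Freshly isolated cells of both ages were high and both cultured groups low (ADM against adult -0.90 ± 0.15, adjusted p = 0.000428). The other 12 lower genes of the complex changed by -0.43 to -0.96, and the remaining 13 were not called in ADM. Of these Ndufs4, of the NADH module, measured 9.35 to 9.45 in adult cells and 9.48 to 9.62 in ADM, and Ndufa7 9.08 to 9.35 and 8.98 to 9.10.

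**Figure D2:**
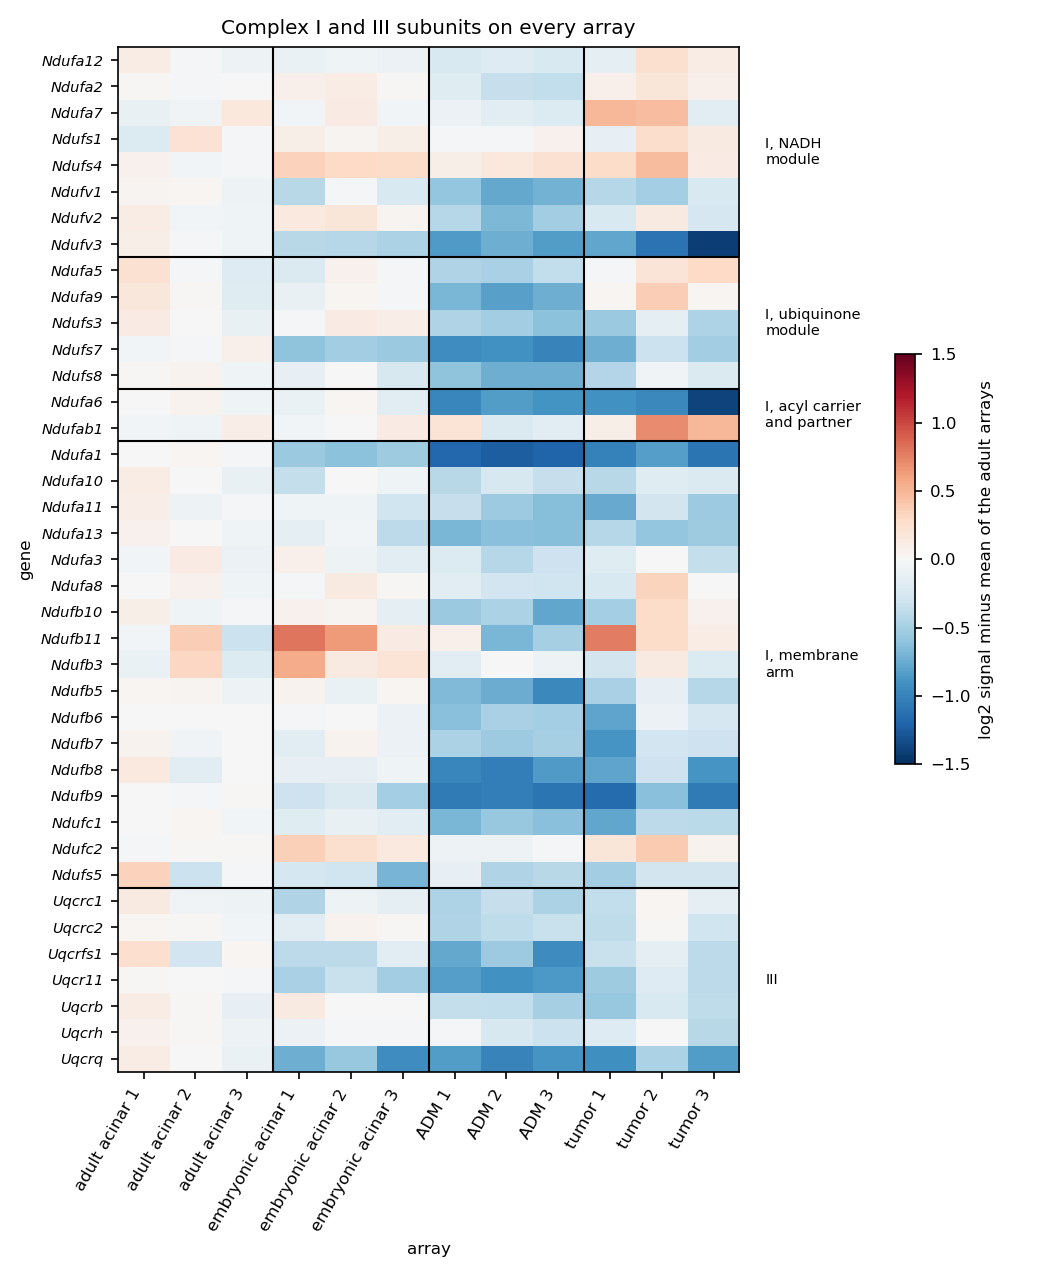
Heat map of the genes of complexes I and III (vertical axis) on the 12 arrays (horizontal axis, by group), as log2 signal minus the mean of the 3 adult arrays, on a colour scale from -1.5 to 1.5. The 3 ADM columns are low on complex I genes, with array medians of -0.45, -0.54 and -0.52, and the first tumor array (-0.43) is lower than the second (-0.07) and the third (-0.24).

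Array by array, the median difference of complex I genes from the adult mean was -0.45, -0.54 and -0.52 in ADM. In embryonic cells it was -0.08, 0.01 and -0.07, and in tumor cells -0.43, -0.07 and -0.24. ADM arrays were close to each other on this measure, and tumor arrays were not.

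Complex III was lower in ADM among core proteins, the Rieske iron-sulfur protein and accessory subunits, with 6 of 7 genes called and a median of -0.42. Uqcrq, an accessory subunit that binds near cytochrome b, measured 9.29, 9.18 and 9.08 in adult cells, 8.45, 8.61 and 8.25 in embryonic cells, 8.35, 8.18 and 8.30 in ADM and 8.26, 8.71 and 8.34 in tumor cells. Adult cells stood above the other 3 groups, which overlapped each other. Uqcr11, also an accessory subunit, measured 9.10, 9.08 and 9.07 in adult cells, 8.60, 8.75 and 8.56 in embryonic cells, 8.26, 8.17 and 8.22 in ADM and 8.55, 8.89 and 8.69 in tumor cells. ADM arrays were the lowest and adult arrays the highest for this gene. Changes in ADM were -0.91 ± 0.16 for Uqcrq (adjusted p = 0.000563), -0.87 ± 0.14 for Uqcr11 (adjusted p = 0.000224) and -0.75 ± 0.17 for Uqcrfs1, the Rieske iron-sulfur protein (adjusted p = 0.00384). Uqcrc1 and Uqcrc2, the core proteins, and Uqcrb changed by -0.42, -0.39 and -0.41 with adjusted p values of 0.0486, 0.0466 and 0.0381. These 3 calls were not stable: 3 genes of the complex were called without adult array 1 or 2 or any 1 of the ADM arrays, and 3 in the fit of the 2 groups alone. The hinge protein Uqcrh was not called (9.56 to 9.70 in adult cells, 9.32 to 9.62 in ADM).

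Complex II, succinate dehydrogenase, works in both the citric acid cycle and the respiratory chain and has 4 subunits, all nuclear. Sdhb, its iron-sulfur subunit, measured 8.69, 8.52 and 8.59 in adult cells, 8.29, 8.41 and 8.30 in embryonic cells, 7.61, 7.63 and 7.63 in ADM and 7.47, 8.10 and 8.0 in tumor cells. Adult and ADM arrays were far apart, embryonic arrays fell between them, and the first tumor array lay below the other two. The change in ADM was -0.98 ± 0.16 (adjusted p = 0.000408), 1.97-fold. Without adult array 2, 2 genes of the complex were lower in place of 1. Sdha, the catalytic flavoprotein, measured 9.41, 9.31 and 9.33 in adult cells, 8.85, 9.26 and 9.19 in embryonic cells, 8.94, 9.05 and 9.0 in ADM and 9.08, 8.77 and 9.23 in tumor cells, and was called in none of the 6 comparisons. Its adult arrays were nonetheless above every other array.

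Sdhc and Sdhd anchor the complex in the membrane. Sdhc measured 8.54, 8.23 and 8.80 in adult cells, 8.82, 8.93 and 8.56 in embryonic cells, 8.08, 8.19 and 7.90 in ADM and 8.60, 8.63 and 8.22 in tumor cells. Sdhd measured 8.43, 8.25 and 8.54 in adult cells, 8.70, 8.79 and 8.84 in embryonic cells, 8.20, 8.38 and 8.28 in ADM and 8.87, 9.06 and 8.71 in tumor cells. Neither anchor was called in ADM against adult cells, and adult and ADM arrays of Sdhd overlapped. Sdhd was 0.47 ± 0.14 higher in tumor than in adult cells (adjusted p = 0.0193), a call lost without adult array 2, without tumor array 2 and under each of the 3 other scalings. With housekeeping centring that change was -0.09.

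Several subunits of complex IV exist as a common isoform and a tissue isoform from separate genes. Cox4i1, Cox6a1, Cox6b1 and Cox8a, the common isoforms of their subunits, were called in none of the 6 comparisons, with all 12 arrays within 11.07 to 11.42, 11.85 to 12.09, 10.24 to 10.66 and 10.63 to 11.10. Cox7a2 measured at least 10.92 on adult arrays and at most 10.68 on ADM arrays, which did not overlap but did not pass the test. Cox7a2l, which links complexes III and IV into supercomplexes, measured 8.49 to 8.57 in adult cells and 8.40 to 8.74 in ADM. Cox7b, an accessory subunit, was called in 5 of the 6 comparisons. It measured 10.69, 10.90 and 10.57 in adult cells, 10.38, 10.17 and 10.24 in embryonic cells, 9.78, 9.57 and 9.84 in ADM and 9.76, 9.91 and 9.81 in tumor cells. The adult arrays were highest and both cultured groups lowest (ADM against adult -0.99 ± 0.14, adjusted p = 0.000127). A second, dimmer probe set of Cox7b averaged 5.25 in adult, 4.83 in ADM and 5.40 in tumor cells. Cox5b changed by -0.53 ± 0.19 in ADM (adjusted p = 0.0444), and Cox7b alone of the lower genes was called without adult array 1 or any 1 of the ADM arrays.

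3 tissue isoforms of complex IV subunits were high in embryonic acinar cells and intermediate in ADM. Ndufa4l2, a paralog of Ndufa4 known for induction by hypoxia, measured 8.71, 7.40 and 8.25 in embryonic cells, 6.70, 6.01 and 7.51 in ADM, 4.52, 5.53 and 4.99 in adult cells and 4.04, 4.25 and 4.18 in tumor cells. Cox6b2, known as the testis isoform of its subunit, measured 8.14, 7.80 and 7.32 in embryonic cells, 6.17, 5.87 and 6.23 in ADM, 4.99, 3.87 and 4.53 in adult cells and 4.97, 4.41 and 4.17 in tumor cells. Cox7a1, the heart and muscle isoform, measured 6.70, 7.06 and 7.34 in embryonic cells, 5.92, 6.21 and 5.71 in ADM, 4.63, 4.73 and 5.31 in adult cells and 5.78, 5.32 and 5.05 in tumor cells. All embryonic arrays exceeded all adult and tumor arrays for each of these genes, and all ADM arrays exceeded all adult arrays. ADM and embryonic arrays overlapped for Ndufa4l2, and ADM and tumor arrays for Cox7a1.

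Against adult cells, embryonic cells were higher by 3.11 ± 0.38 for Ndufa4l2 (adjusted p = 4.94e-05), 3.29 ± 0.29 for Cox6b2 (adjusted p = 3.18e-06) and 2.14 ± 0.24 for Cox7a1 (adjusted p = 2.52e-05). These are 8.61-fold, 9.78-fold and 4.42-fold differences and are the largest of any of the 89 genes in that comparison. ADM was higher than adult by 1.73 ± 0.38 (adjusted p = 0.00305), 1.63 ± 0.29 (adjusted p = 0.000679) and 1.06 ± 0.24 (adjusted p = 0.00402). The call of Cox7a1 in ADM was lost under the 3 other scalings, with changes of 0.53, 0.57 and 0.55. Of their common counterparts, Cox6b1 was not called, as given above, and Ndufa4, which belongs to complex IV despite its name, measured 11.15, 11.07 and 11.22 in adult cells and 11.34, 11.40 and 11.32 in embryonic cells. Ndufa4 was also not called in embryonic against adult cells.

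**Figure D3:**
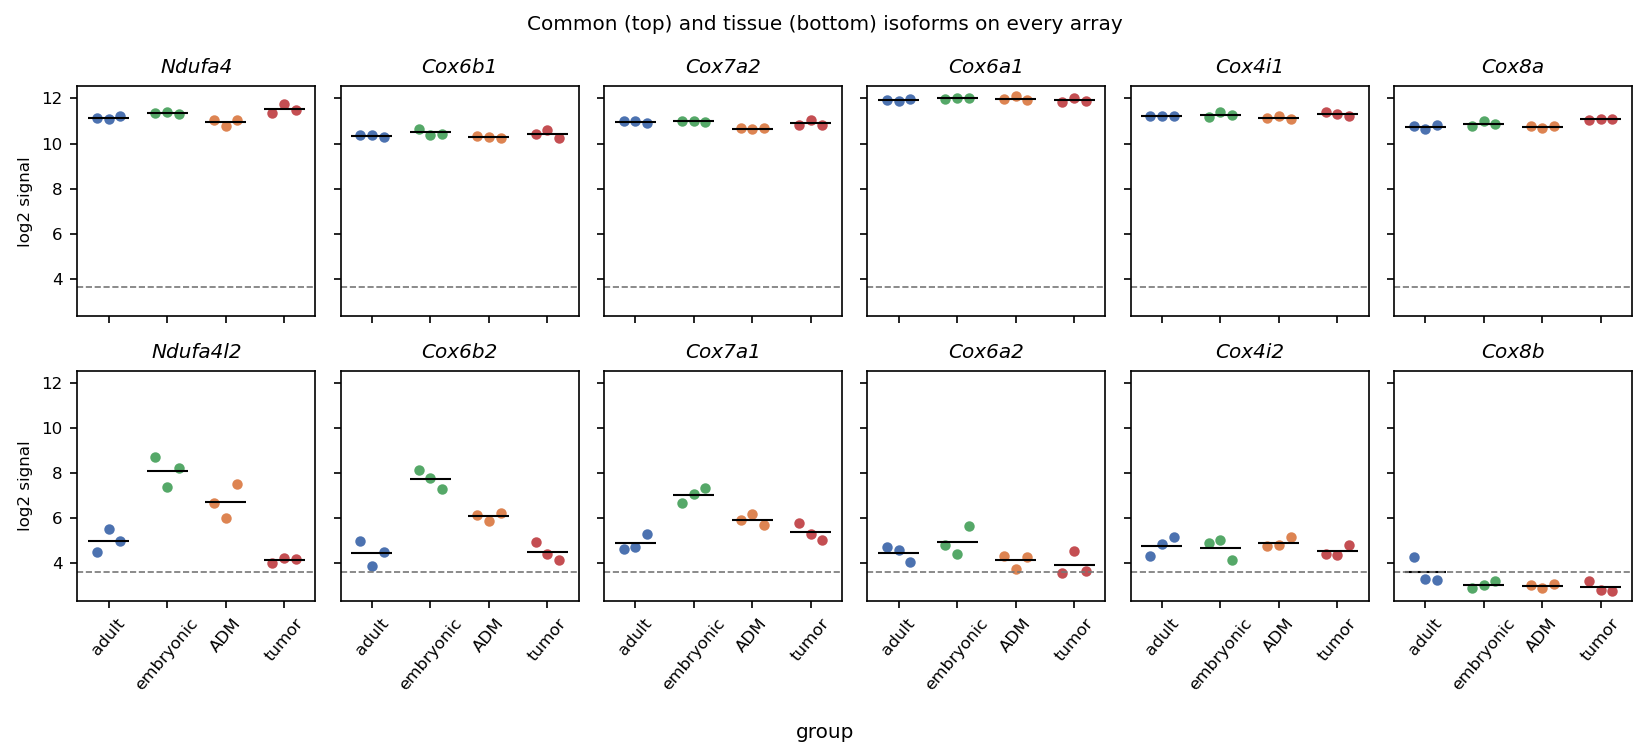
Log2 signal (vertical axis) of 6 common subunits (top) and 6 tissue isoforms (bottom) of complex IV on the 12 arrays by group; points are arrays, bars are group means, and the dashed line is the background level of 3.62. Each panel is read on its own; Ndufa4l2, Cox6b2 and Cox7a1 are highest on the embryonic arrays, while the Cox4i1 arrays all lie within 11.07 to 11.42.

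Markers of other cell types also differed between the groups. The 6 fibroblast markers, all above background in adult, embryonic and ADM cells, averaged 9.27 to 9.91 on embryonic arrays, 7.22 to 8.66 on ADM arrays, 5.64 to 5.92 on adult arrays and 3.24 to 3.42 on tumor arrays, where Col1a2, Dcn, Lum and Pdgfra were not above background. Group means of Ndufa4l2 had the same order, and those of Cox6b2 also ran from embryonic to ADM to the adult and tumor arrays, which overlapped. Cox7a1 differed from that order, with a tumor mean of 5.38 above the adult mean of 4.89. The 5 immune markers averaged 5.73 to 6.41 on embryonic, 5.13 to 5.78 on ADM, 4.74 to 4.94 on adult and 3.61 to 3.89 on tumor arrays, again the order of Ndufa4l2, with Ptprc and Adgre1 not above background in ADM and 4 of the 5 not above it in tumor cells. The 4 endothelial markers averaged 7.85 to 8.03 on embryonic arrays, 5.09 to 5.71 on ADM arrays, 5.54 to 5.80 on adult arrays and 3.48 to 3.53 on tumor arrays. The 4 endocrine markers averaged 9.94 to 10.25, 6.30 to 7.04, 7.70 to 8.36 and 4.57 to 5.15 in the same order of groups. Adult arrays overlapped ADM arrays for the endothelial markers and exceeded them for the endocrine markers, unlike the isoforms. The 7 striated muscle markers stayed at 3.57 to 4.0 on all arrays, with 3 to 5 of them above background in each group. The 5 adipocyte markers averaged 4.41 to 4.67 on adult, 4.45 to 4.85 on embryonic, 4.4 to 4.63 on ADM and 3.07 to 3.21 on tumor arrays. Adipoq, Cidea and Ucp1 were not above background in any group, while Fabp4 was in all but tumor cells and Plin1 in all but ADM. The summed linear signal of the 5 was 1330 to 1790 on embryonic, 741 to 945 on ADM, 630 to 781 on adult and 42.9 to 47.5 on tumor arrays. The part of any of these markers in the isoform differences was not tested.

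Other tissue isoforms showed no such pattern. Cox4i2, the lung isoform, measured 4.14 to 5.19 over all 12 arrays and was not called in any comparison. Cox6a2, the heart and muscle isoform, measured 4.72, 4.59 and 4.07 in adult cells, 4.81, 4.42 and 5.65 in embryonic cells, 4.35, 3.77 and 4.29 in ADM and 3.56, 4.56 and 3.66 in tumor cells, and was called only in tumor against embryonic cells (-1.03, adjusted p = 0.0325), whose arrays overlapped. Cox8b was above background only in adult cells, where array 1 stood at 4.27 and the other two at 3.33 and 3.28. Cox8c and Cox7b2 were not above background in any group.

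Complex V, ATP synthase, had no higher and 2 lower genes in ADM. Atp5a1 and Atp5b, of its catalytic head, were called in none of the 6 comparisons and measured 10.80 to 11.20 and 11.15 to 11.46 over all arrays. Atp5pb, of the peripheral stalk that holds the catalytic head in place, was lower in ADM, with 9.50, 9.35 and 9.30 in adult cells and 8.83, 8.85 and 8.85 in ADM (change -0.54 ± 0.16, adjusted p = 0.0159). Atp5g3, for the rotating c ring, measured 9.94, 9.96 and 10.07 in adult cells and 9.69, 9.49 and 9.50 in ADM (change -0.43 ± 0.14, adjusted p = 0.0299). Adult and ADM arrays of both genes did not overlap. Of the other genes for the same c subunit, Atp5g2 measured 11.07, 11.25 and 11.23 in adult cells and 10.98, 10.81 and 10.79 in ADM and was not called, and Atp5g1 was not above background. Only Atp5pb was called without adult array 3, without ADM array 2 and without ADM array 3.

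The assembly factors of complex I were split in ADM, with 2 higher and 2 lower of 8. Ndufaf8, a partner of the assembly factor Ndufaf5, was lower by -0.97 ± 0.21 (adjusted p = 0.00252) and Ndufaf4, which joins the ubiquinone module to the membrane arm, by -0.88 ± 0.32 (adjusted p = 0.049). Ndufaf7, which methylates a subunit of the ubiquinone module, was higher by 0.77 ± 0.23 (adjusted p = 0.0179) and Ndufaf2, which acts late in assembly, by 0.66 ± 0.23 (adjusted p = 0.0378). Of these 4, Ndufaf8 alone held under every alternative. Both higher calls were lost under the 3 other scalings, where the median of the 8 genes moved from 0.38 to -0.16, -0.09 and -0.13. The call of Ndufaf4 was lost on leaving out any 1 of the 6 arrays compared. Of the 2 higher genes, 1 was called without adult array 2 or 3 or ADM array 1 or 2, and 0 without ADM array 3.

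Few of the genes were called between embryonic and adult acinar cells. 6 of the 89 genes were higher and 6 lower, 6.74% each, against 17.6% and 11.8% of all genes. Of the 56 bright subunit genes 5 were lower (8 and 2 higher at an unadjusted limma p under 0.05; 8.93%, against 14.7% of all bright genes, with 26.7% of those higher) and 0 higher. With housekeeping centring 41 of the 89 and 9540 of all 22180 genes were lower. The higher share of all calls was then 21.5% in place of 59.8%, and the median of all genes was -0.41. With quantile normalization that share was 46.6%, and 14 were lower. With the 2-fold minimum 1 was lower and 3 were higher (2.61% and 10.0% of all genes). The medians were -0.06 in complex I, 0.00 in complex II, -0.22 in complex III, 0.06 in complex IV and 0.05 in complex V.

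Among the lower genes, Ndufa1 changed by -0.57 ± 0.13 (adjusted p = 0.00487), Ndufs7 by -0.56 ± 0.14 (adjusted p = 0.00836) and Uqcrq by -0.75 ± 0.16 (adjusted p = 0.00334). Both comparisons use the same 3 adult arrays, so these values are not independent of those in ADM. Ndufaf4 showed the largest decrease, with 8.43, 8.26 and 8.71 in adult cells, 7.19, 7.06 and 7.39 in embryonic cells, 7.66, 7.48 and 7.62 in ADM and 6.67, 8.29 and 8.13 in tumor cells. Adult and embryonic arrays were well apart (change -1.25 ± 0.32, adjusted p = 0.011), and 1 tumor array lay far below the other two. Ndufaf2 was higher by 0.90 ± 0.23 (adjusted p = 0.00991), and this call, like that of Ndufaf4, held under every alternative apart from the 2-fold minimum. Ndufaf6 (0.92, adjusted p = 0.043) and Ndufaf7 (0.77, adjusted p = 0.0213) were called as higher but not under the other scalings. 1 assembly factor was higher without adult array 1, and 1 without embryonic array 1, in place of 3. Complex III had 1 lower gene in place of 2 without embryonic array 1 or 3, and complex IV had 2 lower in place of 1 without adult array 3.

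Tumor cells against adult acinar cells showed 16 of the 89 genes lower (18.0%) and 6 higher (6.74%), where 15.2% of all genes were lower and 22.1% higher. Among bright subunit genes 14 of 56 were lower and 1 higher, against 23.9% and 42.8% of all bright genes. For bright subunit genes the lower share was thus close to that of all bright genes, and the higher share was far below it. Complex I accounted for 10 of the lower genes, with a median of -0.25, complex III for 3 (median -0.29) and complex IV for 2, Cox7b and Cox8b. The adult mean of Cox8b (3.63) barely exceeded the background level through 1 array, so its call gives no fold. 5 of the 6 higher genes were assembly factors of complex I. With housekeeping centring 74 genes were lower and 3 higher, against 13928 and 2885 of all 22180 genes. The higher share of all calls was then 17.2% in place of 59.3%. With cyclic loess, where that share was 49.1%, 39 were lower. With the 2-fold minimum 2 were lower and 4 higher (5.96% and 14.0% of all genes). Of the 22 calls, 9 held under every alternative apart from the 2-fold minimum, 5 of them in complex I.

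Ndufv3 and Ndufa6 fell the most, with -1.10 ± 0.16 (adjusted p = 8.94e-05) and -1.09 ± 0.15 (adjusted p = 6.95e-05). Ndufa1 changed by -0.98 ± 0.13 (adjusted p = 3.54e-05) and Sdhb by -0.74 ± 0.16 (adjusted p = 0.00268). No tumor array of these 4 genes reached the adult range, as the values above show. By module of complex I, the membrane arm was lower in 7 of 17 genes (median -0.36), the ubiquinone module in 1 of 5 (median -0.24) and the NADH module in 1 of 8 (median 0.08). Complex III was lower in Uqcrq, Uqcrb and Uqcr11, of which 1 was called without adult array 1 or 2 or tumor array 1 or 3. Of the 2 lower genes of complex IV, 1 was called without adult array 1 or tumor array 3, and the call of Cox7b was lost when its probe sets were averaged (-0.37). Complex V had 0 called genes of 17 in limma (1 higher and 1 lower at an unadjusted p under 0.05), but 7 higher and 3 lower with quantile normalization, 4 lower with cyclic loess and 16 lower with housekeeping centring.

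Of the 8 assembly factors, 5 were called higher in tumor cells and 0 lower in limma (5 and 1 at an unadjusted p under 0.05). Ndufaf2 measured 7.66, 7.36 and 6.89 in adult cells, 8.29, 8.24 and 8.07 in embryonic cells, 8.11, 7.88 and 7.89 in ADM and 8.27, 9.03 and 9.0 in tumor cells. All adult arrays lay below all other arrays, and the change in tumor cells was 1.46 ± 0.23 (adjusted p = 0.000164), 2.76-fold. Ndufaf6 measured 4.33, 3.66 and 4.71 in adult cells and 5.05, 6.34 and 5.77 in tumor cells, with no overlap (1.49 ± 0.32, adjusted p = 0.00199). Ndufaf5, which hydroxylates an arginine of Ndufs7, measured 5.15, 5.34 and 4.77 in adult cells and 5.73, 6.85 and 6.15 in tumor cells (1.16 ± 0.24, adjusted p = 0.00179). Its groups did not overlap either, but the call was lost with quantile normalization (0.58) and cyclic loess (0.62). Ndufaf7 was higher by 1.02 ± 0.23 (adjusted p = 0.0028), lost under the 3 other scalings, and Ndufaf1 by 0.63 (adjusted p = 0.0468), with overlapping arrays.

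The other 3, Ndufaf3, Ndufaf4 and Ndufaf8, were not called, with changes of -0.27, -0.77 and -0.29. Ndufaf3, which works with Ndufaf4, measured 6.83, 6.61 and 7.69 in adult cells and 6.69, 6.97 and 6.65 in tumor cells. Over the 8 genes the array medians of the difference from the adult mean were 0.59, 1.13 and 0.69 in tumor cells, 0.46, 0.31 and 0.38 in ADM and 0.27, 0.35 and 0.37 in embryonic cells. The second tumor array stood highest. With quantile normalization or cyclic loess, 2 of the 8 were higher in tumor cells and 3 lower, and with housekeeping centring 3 and 3. Ndufaf2 and Ndufaf6 were higher under each scaling.

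**Figure D4:**
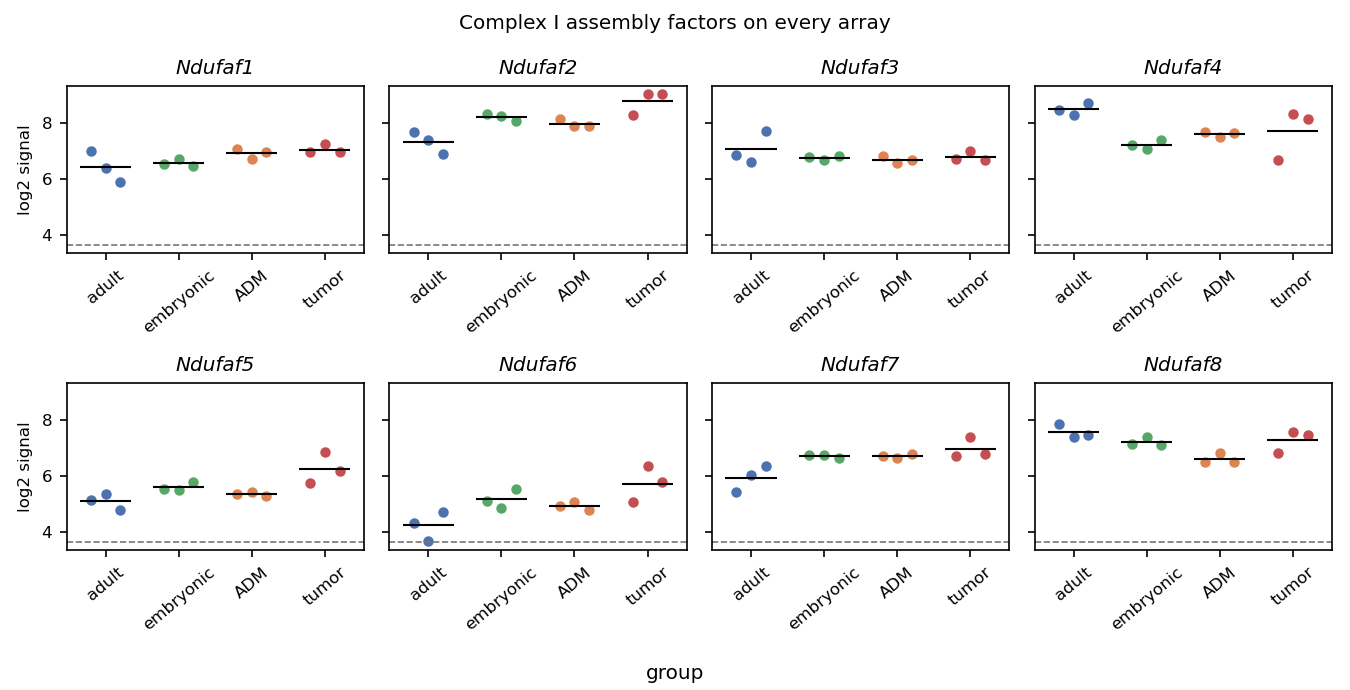
Log2 signal (vertical axis) of the 8 assembly factors of complex I on the 12 arrays by group, with points for arrays and bars for group means. The adult arrays of Ndufaf2 span 6.89 to 7.66 and its tumor arrays 8.27 to 9.03, whereas Ndufaf4 is highest on adult arrays (8.26 to 8.71).

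Set directly against ADM, tumor cells had 11 genes higher and 2 lower, where 7.41% of all genes were higher and 7.94% lower. 8 of the 56 bright subunit genes were higher (14.3%) and 0 lower, against 13.9% and 11.3% of all bright genes. The higher share was thus close to that of all bright genes. The higher genes were spread over complex I (4 of 32), its assembly factors (3 of 8) and 1 each in complexes II to V. Ndufa9 was higher by 0.89 ± 0.15 (adjusted p = 0.00101), 1.86-fold, and the ADM arrays lay below all tumor arrays. 3 of the 5 ubiquinone module genes were higher (Ndufa9, Ndufa5 and Ndufs8) and 0 of the 17 membrane arm genes. Outside complex I, Sdhd was higher by 0.59, Atp5g2 by 0.50, Uqcr11 by 0.49 and Ndufa4 by 0.57. The assembly factors Ndufaf5, Ndufaf2 and Ndufaf8 were higher by 0.89, 0.81 and 0.68.

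Most of these calls depended on single arrays. Without ADM arrays 1, 2 and 3 in turn, 4, 2 and 4 genes were called higher, and without tumor arrays 1, 2 and 3, 17, 1 and 4. Of the 4 higher genes of complex I, 2, 1 and 2 were called without ADM arrays 1, 2 and 3 and 7, 1 and 2 without tumor arrays 1, 2 and 3. Of the assembly factors 0 were higher on leaving out any of these arrays other than tumor array 1, and 5 without that array. Complex V had 2 higher genes without tumor array 1. The 2 lower genes were Ndufa4l2 (-2.58 ± 0.38, adjusted p = 0.000375) and Cox6b2 (-1.57 ± 0.29, adjusted p = 0.00213), and both held under every alternative. With the 2-fold minimum these 2 were lower and 0 genes were higher (5.07% and 3.28% of all genes).

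ADM was also set against embryonic acinar cells. 26 genes were lower and 0 higher in limma (46 and 0 at an unadjusted p under 0.05), against 8.44% and 9.13% of all genes, and 18 of the 56 bright subunit genes were lower and 0 higher (12.8% and 18.9% of all bright genes). Complex I supplied 14 of the lower genes (median -0.41), complex IV 4, complexes II and V 3 each and complex III 2. Ndufb11 had the largest decrease in complex I, -0.89 ± 0.26 (adjusted p = 0.0288), but its call did not hold under every alternative. It measured 7.10, 6.93 and 6.42 in embryonic cells and 6.37, 5.61 and 5.79 in ADM. Ndufb8, Ndufa6 and Ndufb5 changed by -0.86, -0.82 and -0.78 (adjusted p = 0.00231, 0.00177 and 0.00182). Ndufb5, of the membrane arm, measured 8.27, 8.11 and 8.24 in embryonic cells and 7.55, 7.47 and 7.25 in ADM, with no overlap, while adult arrays (8.24, 8.26 and 8.14) overlapped the embryonic ones. In complex II, Sdhb, Sdhc and Sdhd changed by -0.71, -0.71 and -0.49.

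Cox6b2 was lower in ADM by -1.66 ± 0.29 (adjusted p = 0.00114) and Cox7a1 by -1.09 ± 0.24 (adjusted p = 0.00617). Ndufa4l2 was lower by -1.38 (adjusted p = 0.0216), with overlapping arrays, a call lost without embryonic array 1 or 3 and without ADM array 1 or 2. 10 of the 26 calls held under every alternative apart from the 2-fold minimum, and 7 of these were in complex I. Without embryonic arrays 1, 2 and 3 in turn, 14, 13 and 18 genes were lower, and without ADM arrays 1, 2 and 3, 16, 12 and 12. For complex I the count fell from 14 to 8 without embryonic array 2 or ADM array 2 and to 7 without ADM array 3, and complex III had 0 on leaving out any 1 of the arrays. Complex II kept 1 without embryonic array 1 or 2 or ADM array 3, and complex IV 2 without embryonic array 1 or ADM array 2. Complex V had 1 lower without embryonic array 1 or ADM array 1 and 0 without embryonic array 2, ADM array 2 or ADM array 3. With housekeeping centring 51 genes were lower, against 2892 of all 22180 genes, with 30.9% of all calls higher in place of 52.0%. With the 2-fold minimum 3 were lower and 0 higher (4.91% and 4.55% of all genes).

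Against embryonic cells, tumor cells had 13 genes lower (14.6%) and 0 higher in limma, and 22 and 4 at an unadjusted p under 0.05. Among all genes 12.3% were lower and 14.2% higher. 8 of the 56 bright subunit genes were lower (14.3%) and 0 higher, against 16.2% and 28.5% of all bright genes. The lower share was thus close to that of all bright genes. The isoforms led, with -3.96 ± 0.38 for Ndufa4l2 (adjusted p = 3.55e-06, 15.6-fold), -3.24 ± 0.29 for Cox6b2 (adjusted p = 1.97e-06, 9.43-fold) and -1.65 ± 0.24 for Cox7a1 (adjusted p = 0.00018, 3.14-fold). Ndufa6 changed by -1.0 ± 0.15 (adjusted p = 0.000242) and Ndufv3 by -0.66 (adjusted p = 0.00675). These 5 held under every alternative apart from the 2-fold minimum. Leaving out single embryonic arrays gave 6 lower genes each time, and leaving out tumor arrays 1, 2 and 3 gave 6, 15 and 5. For complex I the count of 6 became 3, 2 and 3 without embryonic arrays 1, 2 and 3, 3 without tumor array 1 and 2 without tumor array 3. Complex IV had 3 in place of 5 without embryonic array 1 or 3 and without tumor array 1 or 3. 5 genes were higher without tumor array 1, 4 of them assembly factors. With cyclic loess the higher share of all calls was 42.6% in place of 53.7%, and 22 genes were lower. With housekeeping centring it was 31.6%, and 30 were lower, against 4134 of all 22180 genes. With the 2-fold minimum 5 were lower and 0 higher (7.8% and 6.53% of all genes).

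Promoter windows of the 250 bases before a gene start were available for 72 of the 89 genes (77 windows, RefSeq, mouse build GRCm38.p6). 4 are printed because their genes carry the main patterns: Ndufa1 and Ndufa6, low in both cultured groups, and Cox6b2 and Cox7a1, high in embryonic cells. Capitals mark the letters GCATGCGC, a core of the binding motif of NRF1 (nuclear respiratory factor 1), a known regulator of respiratory chain genes. Each runs 5′ to 3′ towards the start on the gene's strand.
Ndufa1, chrX:37191239-37191488, minus strand: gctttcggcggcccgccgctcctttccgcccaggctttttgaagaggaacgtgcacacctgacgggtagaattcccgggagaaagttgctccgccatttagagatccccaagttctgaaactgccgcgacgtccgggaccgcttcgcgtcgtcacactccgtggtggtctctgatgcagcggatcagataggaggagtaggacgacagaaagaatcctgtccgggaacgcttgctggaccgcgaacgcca
Ndufa6, chr15:82354292-82354541, minus strand: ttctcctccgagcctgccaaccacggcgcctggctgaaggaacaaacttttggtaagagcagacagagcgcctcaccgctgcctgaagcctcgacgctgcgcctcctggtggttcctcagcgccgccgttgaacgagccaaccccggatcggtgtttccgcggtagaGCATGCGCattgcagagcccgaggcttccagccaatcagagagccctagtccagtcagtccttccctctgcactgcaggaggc
Cox6b2, chr7:4753095-4753344, minus strand: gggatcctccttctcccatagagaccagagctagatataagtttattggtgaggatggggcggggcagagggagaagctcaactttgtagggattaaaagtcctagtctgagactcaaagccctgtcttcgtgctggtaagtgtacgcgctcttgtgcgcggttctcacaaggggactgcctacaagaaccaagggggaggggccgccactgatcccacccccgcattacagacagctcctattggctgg
Cox7a1, chr7:30183921-30184170, plus strand: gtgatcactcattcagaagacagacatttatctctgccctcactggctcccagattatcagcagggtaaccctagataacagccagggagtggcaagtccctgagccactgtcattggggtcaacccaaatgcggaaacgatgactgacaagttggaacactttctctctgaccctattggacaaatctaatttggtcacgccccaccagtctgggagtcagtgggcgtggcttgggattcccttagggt

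The NRF1 letters, searched as GCATGCGC or its other strand GCGCATGC, stood in 9 of the 77 windows (11.7%), against 2.26% of 32851 promoter windows of the same length. An ETS core, CCGGAAG or CTTCCGG, stood in 18.2% against 6.91%, and a core of the estrogen-related receptor site, AAGGTCA or TGACCTT, in 3.9% against 4.08%. Where they adjoin, the ETS and receptor letters can share the bases AAG, and the NRF1 letters can overlap themselves on the other strand. Of the 4 printed windows the NRF1 letters occur in that of Ndufa6 alone, and 0 of the 4 windows of complex IV tissue isoforms held any of the 3. A match describes the letters in the window and says nothing about binding in these cells.

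Mitochondrial DNA encodes the remaining subunits, of which 10 were measured. None was higher in ADM, embryonic or tumor cells than in adult cells. 7 of 10 were lower in ADM (median -0.39), 1 of 10 in embryonic cells (median -0.16) and 10 of 10 in tumor cells (median -0.61), while 15.0%, 11.8% and 15.2% of all genes were lower. ND4L, a membrane subunit of complex I, changed by -0.80 ± 0.13 in ADM (adjusted p = 0.000401) and -1.08 ± 0.13 in tumor cells (adjusted p = 2.41e-05), and ND6, a neighbour in the same arm, by -0.57 and -0.85. The counts depended on scaling: with quantile normalization 1 was lower in ADM and 3 in tumor cells, and with cyclic loess 3 and 6. In ADM 4, 2 and 4 were lower without ADM arrays 1, 2 and 3.

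Lists of genes that serve mitochondria without being subunits were mixed in ADM, some with more higher than lower genes and others with the reverse. In tumor against adult cells more were higher than lower in each list except electron carriers and ubiquinone synthesis. More of all genes were also higher than lower there. Some other scalings reversed this balance for ribosomal proteins and assembly factors. Of 71 mitochondrial ribosomal protein genes 34 were higher and 2 lower in tumor against adult cells (median 0.46), 10 higher and 17 lower in ADM, and 29 higher and 0 lower in tumor cells against ADM. Among all genes 22.1% were higher and 15.2% lower in tumor cells, 20.9% and 15.0% in ADM, and 7.41% and 7.94% in tumor cells against ADM. Mrpl49 and Mrps25, of the large and the small subunit of that ribosome, were higher in tumor cells by 2.62 and 2.32. Under quantile normalization the tumor counts became 15 higher and 12 lower, under cyclic loess 15 and 17, and under housekeeping centring 13 and 28. In ADM 10 were lower without ADM array 3. Against ADM, 19, 17 and 17 were higher without ADM arrays 1, 2 and 3 and 46 and 16 without tumor arrays 1 and 2. Single omissions of an array also moved the 2 lower genes in tumor cells, to 5 without tumor array 2 and to 1 without adult array 3, tumor array 1 or tumor array 3.

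Import, inner membrane and chaperone genes were higher in tumor cells in 15 of 23, with 0 lower and a median of 0.78, where 22.1% of all genes were higher and 15.2% lower. Under quantile normalization 13 and under cyclic loess 11 were higher, and under housekeeping centring 8 were higher and 2 lower. Slc25a4, an ADP/ATP carrier that exchanges the product of complex V for ADP, measured 5.47, 5.58 and 5.41 in adult cells, 7.85, 7.60 and 7.55 in embryonic cells, 7.39, 7.65 and 7.62 in ADM and 7.93, 8.05 and 8.46 in tumor cells. Adult cells were far below the other 3 groups, by 2.18 ± 0.17, 2.07 ± 0.17 and 2.66 ± 0.17 (adjusted p = 8.26e-07, 7.66e-07 and 4.07e-08).

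Of 17 regulators of mitochondrial biogenesis, 5 were higher and 2 lower in ADM, where 20.9% of all genes were higher and 15.0% lower. In tumor cells 6 were higher and 2 lower, against 22.1% and 15.2%. Tfb1m, which modifies mitochondrial ribosomal RNA, was lower by -2.27 ± 0.18 in ADM (adjusted p = 8.83e-07) and -1.57 ± 0.18 in tumor cells (adjusted p = 1.44e-05). Nrf1 was higher by 0.93 ± 0.25 in ADM (adjusted p = 0.0115), lost under the 3 other scalings, and by 1.48 ± 0.25 in tumor cells (adjusted p = 0.000367). In ADM 3 of these genes were higher without adult array 3 or ADM array 2 and 2 without ADM array 1 or 3.

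For the lists that follow, the same shares of all genes apply. Of 17 genes of the citric acid cycle and pyruvate entry, 3 were higher and 7 lower in ADM and 5 higher and 2 lower in tumor cells. Idh3a, a catalytic subunit of NAD-dependent isocitrate dehydrogenase, was higher by 1.47 and 2.15, and Mpc1, a part of the mitochondrial pyruvate carrier, lower by -1.83 in ADM. Of 18 genes for electron carriers and ubiquinone synthesis, 3 were higher and 6 lower in ADM and 4 higher and 5 lower in tumor cells. Coq8a, needed for ubiquinone synthesis, changed by -1.92 and -2.27, and Coq10b, which binds ubiquinone, by 2.22 and 1.59. Of 37 assembly factors outside the prefixes, 9 were higher and 11 lower in ADM and 12 higher and 4 lower in tumor cells, the last counts becoming 5 and 12 under quantile normalization. Of these 37, 5 were higher in ADM without ADM array 2, and 7 were lower without adult array 3 and 6 without ADM array 1. In tumor cells 2 were lower without adult array 3 or tumor array 3 and 1 without tumor array 1. For the citric acid cycle 1 gene was lower in tumor cells without adult array 2, tumor array 1 or tumor array 2, and for import genes in ADM, with 6 higher and 2 lower, 0 were lower without adult array 1 and 1 without any 1 of the ADM arrays.

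**Figure D5:**
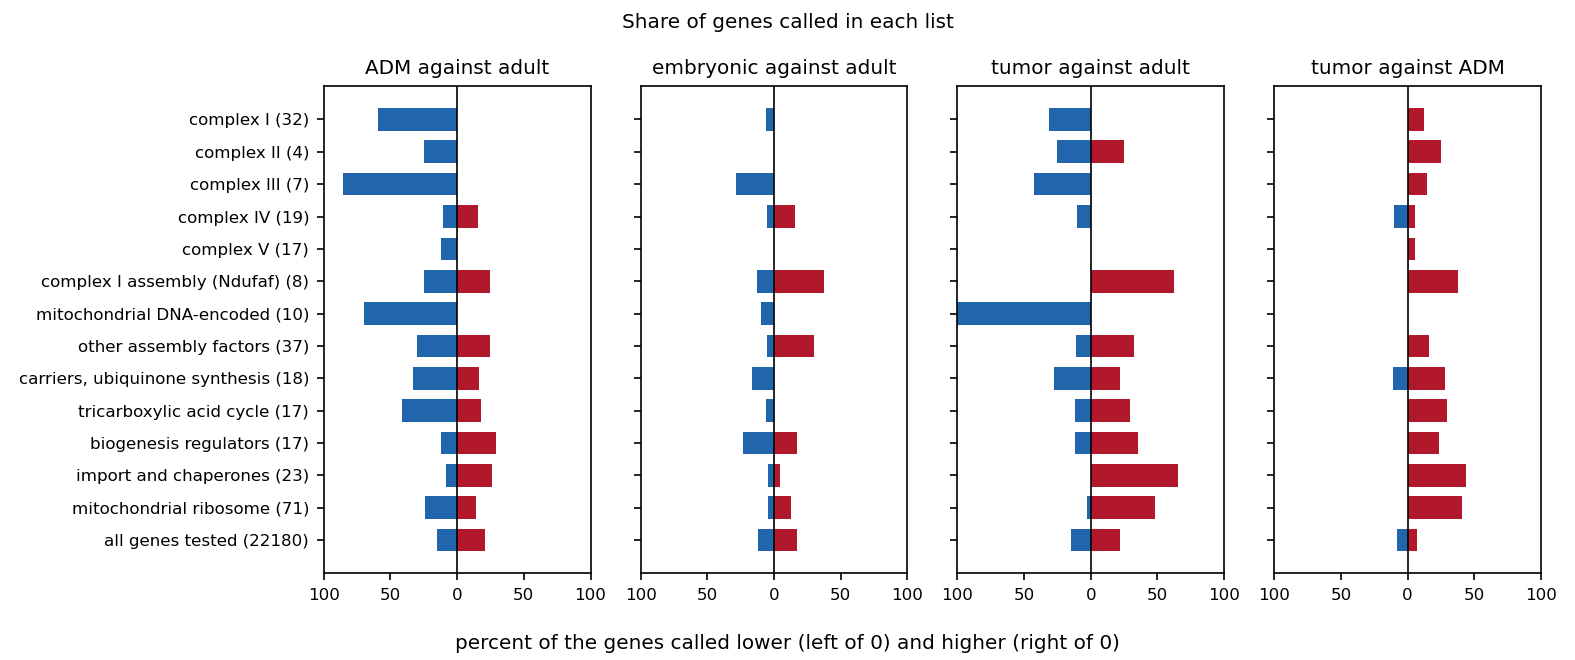
Percent of measured genes called higher (to the right of 0) and lower (to the left) for each complex, each list of other mitochondrial genes and all genes tested (vertical axis, number of genes in brackets), with a panel for each of 4 comparisons. In ADM against adult cells complexes I and III reach far to the left (19 of 32 and 6 of 7 genes lower), and in tumor against adult cells the import genes (15 of 23) and ribosomal proteins (34 of 71) reach to the right.

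10 probe sets named for these gene families carried more than 1 symbol and were left out of the 89. They were fitted apart, with limma p-values adjusted over the 1814 probe sets with several symbols. That of Ndufb4, Ndufb4b and Ndufb4c was lower in ADM than in adult cells by -0.85 (adjusted p = 0.000677), that of Ndufb2 and Adck2 by -0.81 (adjusted p = 0.00353) and that of Uqcr10 and Gm6293 by -0.47 (adjusted p = 0.0175). Ndufs6 and Ndufs6b shared a pair of probe sets, and the brighter was lower in ADM by -0.54 (adjusted p = 0.00583) and in tumor cells by -0.66 (adjusted p = 0.00135). The remaining probe sets were not called in ADM against adult cells. That of Uqcrb and Gm10767 changed by 0.38, those of Cox6c and Gm6265 by 0.24 and 0.19 and that of Ndufs5 and Ndufs5-ps by 0.17. The dimmer one of Ndufs6 changed by -0.30 and that of Ndufs1 and Ino80dos by -0.13. The probe set with Ndufs5 averaged 6.97 in adult and 7.38 in embryonic cells. Signal from these probes cannot be assigned to a single gene. 9 of the 89 genes had more than 1 probe set, and the mean of probe sets in place of the brightest kept 119 of 123 called changes. Averaging altered the values of those 9 genes alone among the 89. Most of the 123 calls were on other genes, so the kept share does not measure how calls depend on the probe set.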

How the data were processed

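Biotin-labelled total RNA had been hybridised to 12 Affymetrix arrays. The values deposited by the authors were log2 signals per probe set with 2 decimals; the base was inferred from their range of 1.56 to 13.67, and the software and normalization behind them are not given in the sources used here. Of 41345 probe sets, 23521 carried 1 gene symbol, 1814 several and 16010 none in the platform annotation. The brightest probe set of each of 22180 genes was fitted with limma 3.58.1 in R 4.3.3 on all 12 arrays, with a mean per group and no block (8 residual and 5.02 prior degrees of freedom), and p-values were adjusted by Benjamini-Hochberg over all genes of a comparison. The number of arrays limits the precision.

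Alternatives were quantile normalization, cyclic loess, centring on 15 housekeeping genes, leaving out dim genes, the mean of probe sets, array weights, fits of 2 groups, a replicate block, omission of each array and a minimum log2 change of 1. The fit was tested on simulated data. Same-numbered arrays correlated between -0.05 and 0.13 in their deviations from group means, with 1 of 18 pairs over 0.1. Correlations over all genes cannot settle whether same-numbered samples were prepared together, and the labels do not say.

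The genes and lists were chosen with earlier results of these data known. Named were the genes of complex II, the isoform sets, the called genes with the largest and smallest change per complex and comparison, and up to 2 genes per list; genes named outside this rule were chosen after their values were seen.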

Additional observations from a re-analysis of the deposited data

Results flagged for a closer look

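Probe sets that carry several gene symbols were not part of the tests above, and 2 of them differed between embryonic and adult acinar cells. The probe set shared by Ndufs1, a subunit of the NADH module of complex I, and Ino80dos averaged 3.96 in adult, 4.51 in embryonic, 3.82 in ADM and 3.85 in tumor cells, and was higher in embryonic than in adult cells by 0.56 ± 0.16 (limma, adjusted p = 0.0308). The brighter probe set shared by Cox6c, a subunit of complex IV, and Gm6265 averaged 11.2 in adult, 11.6 in embryonic, 11.5 in ADM and 11.5 in tumor cells, and was higher in embryonic than in adult cells by 0.37 ± 0.11 (limma, adjusted p = 0.0288). The dimmer probe set with the same symbols changed by 0.22 ± 0.16 and was not called. The single-symbol probe set of Ndufs1 averaged 6.93 in adult and 7.01 in embryonic cells and was not called (0.07 ± 0.15). Which of the named genes gave the signal was not tested.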

How the results depend on the processing

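Counts moved with the scaling, the fit, the fold minimum and single arrays. Genes lower in ADM against adult cells numbered 32, and 79 with housekeeping centring; higher ones numbered 5, and 3 under quantile normalization, 2 under cyclic loess and 2 when centred on housekeeping genes. Genes lower in embryonic against adult cells numbered 6, and 14, 12 and 41 under these 3 scalings in the same order. In tumor against adult cells 16 were lower, and 33, 39 and 74 under the 3 scalings and 10 in the fit of 2 groups; 6 were higher, and 13 with quantile normalization and 3 with housekeeping centring. In tumor against ADM cells 11 were higher, and 7 with cyclic loess, 20 with array weights and 6 in the fit of 2 groups. In ADM against embryonic cells 26 were lower, and 51 with housekeeping centring and 41 with array weights. In tumor against embryonic cells 13 were lower, and 22 with cyclic loess, 30 with housekeeping centring and 6 in the fit of 2 groups; 0 were higher, and 2 with quantile normalization and 5 with array weights. With housekeeping centring 13155, 9540 and 13928 of all 22180 genes were also lower in ADM, embryonic and tumor cells against adult cells. The cause of these shifts was not tested.

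A minimum log2 change of 1 left 3 higher and 2 lower in ADM against adult, 3 and 1 in embryonic against adult, 2 lower in tumor against adult, 0 higher in tumor against ADM, 3 lower in ADM against embryonic and 5 lower in tumor against embryonic cells. On leaving out each array in turn, the lower genes ranged from 20 to 28 in ADM against adult, 4 to 8 in embryonic against adult, 11 to 21 in tumor against adult, 2 to 3 in tumor against ADM, 12 to 18 in ADM against embryonic and 5 to 15 in tumor against embryonic cells. The higher genes ranged over 3 to 5, 4 to 6, 4 to 7, 1 to 17, 0 to 0 and 0 to 5 in the same order. Directions turned in 2 single changes: Sdhd in tumor against adult cells with housekeeping centring (-0.094) and Cox7b in tumor against embryonic cells with the mean of probe sets (0.033). Leaving out dim genes lost none of the 123 called changes, and array weights lost 9. The fit of 2 groups lost 27, quantile normalization 22, the replicate block 19 and cyclic loess 15. Over all omissions of an array, 249 of 738 repeats of these calls were lost.

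With the replicate number as a block, 29 genes were lower and 4 higher in ADM against adult, 6 and 5 in embryonic against adult, 16 and 6 in tumor against adult, 2 and 9 in tumor against ADM, 21 and 0 in ADM against embryonic and 10 and 0 in tumor against embryonic cells. 5 of the 12 arrays correlated best with an array of their own number. Signal over background limits Cox8b, Cox8c and Cox7b2, whose group means lay at or under 3.62 in at least 3 of the 4 groups.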
